A study of Mus musculus with 20 samples.

Results

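The 10 genes described here encode the major Hsp70, Hsp110, Hsp40, Hsp90 and mitochondrial chaperonin proteins of the mouse: Hspa1a, Hspa1b, Hspa8, Hspa5, Hsph1, Dnajb1, Hsp90aa1, Hsp90ab1, Hspd1 and Hspe1. They were chosen by name, matched to the Ensembl identifiers of the count matrix, and make up 10 of its 55401 genes (30096 were counted in 1 mouse or more). RNA was measured by bulk sequencing of the gastrocnemius, a calf muscle made mainly of fast fibres, in 20 mice that had reached an age of 24 months. HK (Haenkenium), a standardized extract of the sage Salvia haenkei, was given to 10 of them at 0.5 mg/kg/day in the drinking water from 20 months of age, that is for 4 months, and 10 were untreated and drank plain water. Each group held 5 males and 5 females. Per the labels, 2 mice of each sex and treatment belonged to experimental batch 1 (8 mice in all) and 3 to batch 2 (12 mice). What the 2 batches differ in is not given in the labels, and no mouse carries a transgene or deletion in them.

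Hsp70 proteins bind short hydrophobic stretches of unfolded polypeptides in cycles of ATP hydrolysis. Hsp40 proteins (J proteins) bring clients and start the hydrolysis, and Hsp110 proteins such as that of Hsph1 release the nucleotide so that the cycle can begin again. Hsp90 takes over partly folded clients, in muscle also the myosin heavy chain, while the chaperonin of Hspd1 and its lid Hspe1 encloses proteins imported into mitochondria. Under heat, proteotoxic stress or intense contraction, the transcription factor HSF1 binds arrays of inverted GAA units, called heat shock elements, and induces Hspa1a, Hspa1b, Dnajb1, Hsp90aa1 and Hsph1, whereas Hspa8 and Hsp90ab1 are the constitutive counterparts and Hspa5 (BiP) follows stress of the endoplasmic reticulum (ER).

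The sequences upstream of the start sites are shown because the genes that varied most between mice, Hspa1a, Hspa1b and Dnajb1, are textbook targets of that factor. RefSeq windows on GRCm38.p6 covering 250 bases before a start site were found for 7 of the 10 genes (10 windows, since Hspd1, Hsph1 and Dnajb1 have 2 each), and none was found for Hspa8, Hsp90aa1 and Hsp90ab1. The windows of Hspa1a (chr17:34972157-34972406, minus strand) and Hspa1b (chr17:34959239-34959488, minus strand) differ at 3 of 250 bases, hold no annotated exon, and are printed 5′ to 3′ with a GAANNTTC match in capitals at position -104 from the start site. For Dnajb1, the 203 bases before its first RefSeq start site that lie outside an exon of the neighbouring gene Tecr (chr8:83607972-83608174, plus strand) hold no such match and have no capitals.
Hspa1a: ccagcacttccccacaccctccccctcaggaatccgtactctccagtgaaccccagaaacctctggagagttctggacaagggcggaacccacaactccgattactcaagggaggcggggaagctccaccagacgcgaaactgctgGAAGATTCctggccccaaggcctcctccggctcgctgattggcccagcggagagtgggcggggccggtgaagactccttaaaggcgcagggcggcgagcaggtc
Hspa1b: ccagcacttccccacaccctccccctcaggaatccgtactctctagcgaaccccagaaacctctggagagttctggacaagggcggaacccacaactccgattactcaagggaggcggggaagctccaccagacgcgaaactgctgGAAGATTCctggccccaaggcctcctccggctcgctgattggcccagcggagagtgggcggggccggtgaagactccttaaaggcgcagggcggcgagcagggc
Dnajb1: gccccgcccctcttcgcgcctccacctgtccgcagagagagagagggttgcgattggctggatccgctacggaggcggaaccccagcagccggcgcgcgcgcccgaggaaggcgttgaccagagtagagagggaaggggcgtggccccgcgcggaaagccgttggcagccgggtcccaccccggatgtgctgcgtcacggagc

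Short stretches of 3 other windows are shown for the motifs they hold, again in capitals. The 18-base run of Hspe1 (chr1:55088053-55088082, plus strand, first capital at -89) holds 2 overlapping matches to an element in which GAANNTTC or TTCNNGAA is followed, after 2 more bases, by another GAA or TTC that keeps the units alternating, which occurs in 0.466% of the 32851 windows in the table. The same run is read from the other strand in the second Hspd1 window: the start sites of Hspd1 (minus strand) and Hspe1 (plus strand) are 111 bases apart on chromosome 1 and the genes overlap, and the run itself lies within an annotated exon of Hspd1. Hsph1 (chr5:149636351-149636380, minus strand) holds a TTCNNGAA match at -33. Hspa5 (chr2:34772020-34772048, plus strand) holds CCAAT and CCACG with 9 bases between them at -65, the ER stress element, found in 0.113% of windows, and 4 CCAAT boxes in all. The Hsph1 match and this Hspa5 element lie before the RefSeq start site but within an annotated GENCODE M21 exon of the same gene. Of the 250 bases of these windows, 40 (Hsph1) and 120 (Hspa5) are exonic.
Hspe1: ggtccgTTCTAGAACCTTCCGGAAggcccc
Hsph1: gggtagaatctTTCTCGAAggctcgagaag
Hspa5: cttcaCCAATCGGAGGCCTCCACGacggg
Over all windows of 250 bases, searched on both strands and with overlaps between motifs allowed, GAANNTTC was found in 6.69%, TTCNNGAA in 7.17%, CCAAT in 33.8% and TATAAA in 7.59%. None of the 10 windows of these genes held TATAAA. A match is a description of the letters and not of a bound site, and a window without one says only that these letters are not in it.

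Positions are on GRCm38 with GENCODE M21. Hspa1a (ENSMUSG00000091971, chr17:34969190-34972156) and Hspa1b (ENSMUSG00000090877, chr17:34956436-34959238) lie on the minus strand of the same chromosome and have 1 exon each. Dnajb1 (ENSMUSG00000005483) spans chr8:83608193-83612653 on the plus strand, Hsp90aa1 (ENSMUSG00000021270) chr12:110690605-110702728 on the minus strand and Hsp90ab1 (ENSMUSG00000023944) chr17:45567775-45573271 on the minus strand. Hspa8 (ENSMUSG00000015656) spans chr9:40800984-40810087 on the plus strand, Hspa5 (ENSMUSG00000026864) chr2:34771970-34777547 on the plus strand and Hsph1 (ENSMUSG00000029657) chr5:149614287-149636376 on the minus strand. Hspd1 (ENSMUSG00000025980, chr1:55077835-55088243, minus strand) and Hspe1 (ENSMUSG00000073676, chr1:55088132-55091307, plus strand) overlap at their 5′ ends.

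All 10 genes were counted in every mouse and all passed the filter on low counts, so the values below cover every gene of the set. Single values ran from 13 counts (Hspa1b) to 45048 (Hsp90ab1), in libraries of 13900180 to 30469644 counts, and the smallest counts were those of Hspa1b, Hspa1a (27) and Dnajb1 (29). All 7 muscle-defining markers, among them Acta1 and Ckm, were counted in every mouse. Mice are taken as separate animals from the labels, and p-values measure the spread between these mice. Levels are given as CPM, the count scaled to the size of the library after TMM normalization, a scaling that assumes that most genes do not differ between libraries.

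Per kb of exon, the constitutive cytosolic Hsp90, Hsp90ab1, had the highest level of the 10, with a median of 469.2 CPM per kb over the 20 mice (392.6 to 627.9). The constitutive Hsp70, Hspa8, came next with a median of 125.5 CPM per kb (97.3 to 174.6), and both were above the next gene in 20 of 20 mice. The chaperonin Hspd1 had a median of 57.6 CPM per kb (48.4 to 62.8) and the ER Hsp70, Hspa5, one of 50.3 (39.8 to 67.9). These neighbours overlapped, with Hspd1 above Hspa5 in 15 of 20 mice. Hspe1, the lid of the chaperonin, followed with a median of 16.3 CPM per kb (11.7 to 20.1). Hsph1 had a median of 12.4 CPM per kb (7.31 to 17.8) and was below Hspe1 in 17 of 20 mice. The inducible Hsp90, Hsp90aa1, had a median of 9.29 CPM per kb (6.004 to 23.0), below Hsph1 in 18 of 20 mice. The 3 lowest genes were those of the stress-induced Hsp70 system. Dnajb1 had a median of 2.23 CPM per kb (0.698 to 40.8), Hspa1a one of 2.13 (0.660 to 27.0) and Hspa1b one of 1.25 (0.358 to 29.4). Dnajb1 was above Hspa1a in 11 of 20 mice, and these neighbours did not differ beyond their spread, whereas Hspa1a was above Hspa1b in 19 of 20.

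**Figure D1:**
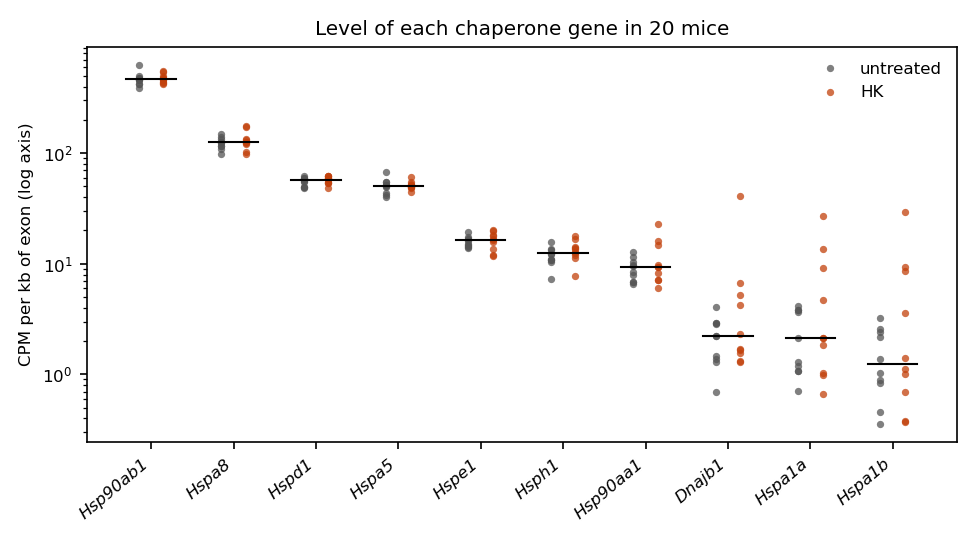
Level of each chaperone gene in CPM per kb of exon (log axis) in 20 mice, genes ordered by their median; each point is a mouse (grey untreated, orange-red HK-treated, 10 each) and the line is the median of all 20. Hsp90ab1 is highest at 469.2 CPM per kb, and Dnajb1, Hspa1a and Hspa1b are lowest and have the widest spread.

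These levels depend on how reads that fit several genes were counted, which is not given in the sources used here. Reads came from 75 sequencing cycles, and of the distinct 75-base windows of the Hspa1a transcript, 52.7% also occur in Hspa1b (55.8% of those of Hspa1b occur in Hspa1a). These adjacent single-exon genes, 12918 bases apart at their start sites, are therefore uncertain as single genes, and their sum is given beside the main result. Hspa8 shares 62.4% of its windows with 11 other genes, Hsp90aa1 shares 45.4% with 3, Hspd1 31% with 5 and Hspe1 23.7% with 2. Hsp90ab1 shares 0.664%, and Hspa5, Hsph1 and Dnajb1 share none. Hspd1 and Hspe1 also overlap each other on opposite strands, and whether reads were counted by strand is not given either. The order of levels between genes is therefore uncertain where it rests on the genes that share windows.

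The genes differed in how much they varied from mouse to mouse. The measure is the SD of log2 CPM after batch, sex and treatment were taken out, ranked among the 13626 genes tested. They were taken out as separate terms, so a level particular to 1 group of sex, batch and treatment adds to the SD. Hspa1b (SD 1.27 on the log2 scale), Hspa1a (1.11) and Dnajb1 (0.94) stood at percentiles 99.7, 99.5 and 99.0. Hsp90aa1 stood at percentile 78.0 and Hsph1 at 64.3. Of the others, Hspa8 stood at percentile 48.1, Hspa5 at 40.3, Hspe1 at 38.9, Hsp90ab1 at 24.3 and Hspd1 at 17.9.

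The first comparison, HK-treated against untreated mice, asks whether 4 months of the extract altered the RNA of these genes in old muscle. None of the 10 genes passed an adjusted p of 0.05 (Benjamini-Hochberg over all genes) in the quasi-likelihood test of edgeR, with batch and sex in the model, and 0% of the 13626 genes did. At an unadjusted p under 0.05 there were 3 of the 10 and 6.13% of all genes. DESeq2 called 7 genes (0.0767% of those it gave an adjusted p) and none of these 10, though it gave Hspa1b no p. Without the filter on low counts edgeR called 4 of the 10 (Hspa1a, Hspa1b, Dnajb1 and Hsp90aa1) and 502 genes in all (1.67%), in a fit whose estimate of spread differed from the filtered one. The log2 fold change was above 0 for all 10, with a median of 0.13 beside 0.0024 over all genes tested. The largest values belonged to Hspa1b, Dnajb1 and Hspa1a.

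Hspa1a and Hspa1b encode the stress-induced cytosolic Hsp70 protein. In batch 2, Hspa1b stood at 82.4, 26.1 and 24.005 CPM in the HK-treated males and at 7.14, 2.51 and 6.05 CPM in the untreated males. In batch 2 females it stood at 1.94, 10.0 and 3.96 CPM with HK and at 9.05, 3.89 and 6.76 CPM without. The 3 HK-treated males of batch 2 were thus above every other mouse, and in the females the groups overlapped. In batch 1 Hspa1b was at 1.04 and 1.06 CPM in HK-treated males and 1.28 and 1.003 CPM in untreated males, and at 3.12 and 2.84 CPM in HK-treated females and 2.90 and 2.33 CPM in untreated females. All 8 mice of batch 1 thus lay between 1.003 and 3.12 CPM. Over all mice Hspa1b averaged 15.6 ± 25.3 CPM (SD, n = 10) with HK and 4.29 ± 2.77 CPM (SD, n = 10) without, a log2 fold change of 1.23 (SE 0.56, p = 0.0392, adjusted p = 0.795, edgeR).

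Hspa1a was highest in the same 3 mice. In batch 2 it stood at 80.1, 40.6 and 27.1 CPM in HK-treated males, at 12.2, 3.17 and 11.3 CPM in untreated males, at 3.03, 13.8 and 6.38 CPM in HK-treated females and at 10.9, 6.35 and 11.4 CPM in untreated females. In batch 1 it ran from 1.96 to 6.30 CPM with a median of 3.37 CPM over 8 mice. Again only the HK-treated males of batch 2 stood clear of the rest. The log2 fold change over all mice was 1.06 (SE 0.45, adjusted p = 0.795, edgeR), and with the counts of Hspa1a and Hspa1b added together it was 1.12 (SE 0.49, adjusted p = 0.795, edgeR).

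Dnajb1 encodes the stress-induced Hsp40 that works with this Hsp70. In batch 2 it stood at 130.7, 16.6 and 21.4 CPM in HK-treated males and at 9.31, 7.11 and 9.24 CPM in untreated males. In batch 2 females it stood at 5.04, 13.7 and 7.50 CPM with HK and at 9.36, 7.16 and 12.98 CPM without. HK-treated male 3, at 130.7 CPM, stood far above the next mouse at 21.4 CPM, and in the females the groups overlapped. The batch 1 mice lay between 2.24 and 5.43 CPM (median 4.30, n = 8). The log2 fold change was 1.09 (SE 0.47, adjusted p = 0.795, edgeR) and was 0.40 (SE 0.21, adjusted p = 0.758, edgeR) when HK-treated male 3 was left out. Without that mouse Hspa1b was at 0.73 (SE 0.43, adjusted p = 0.758, edgeR) and Hspa1a at 0.71 (SE 0.38, adjusted p = 0.758, edgeR).

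Hsp90aa1, the inducible cytosolic Hsp90, covered a smaller range. It stood at 90.3, 63.1 and 57.6 CPM in the HK-treated males of batch 2, at 40.5, 37.7 and 45.2 CPM in the untreated males, at 23.6, 36.4 and 36.6 CPM in HK-treated females and at 50.03, 32.9 and 31.0 CPM in untreated females of that batch. In batch 1 the 8 mice lay between 25.7 and 38.3 CPM (median 28.1). The 3 HK-treated males of batch 2 were again the highest of all mice. The log2 fold change over all mice was 0.24 (SE 0.17, adjusted p = 0.832, edgeR).

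**Figure D2:**
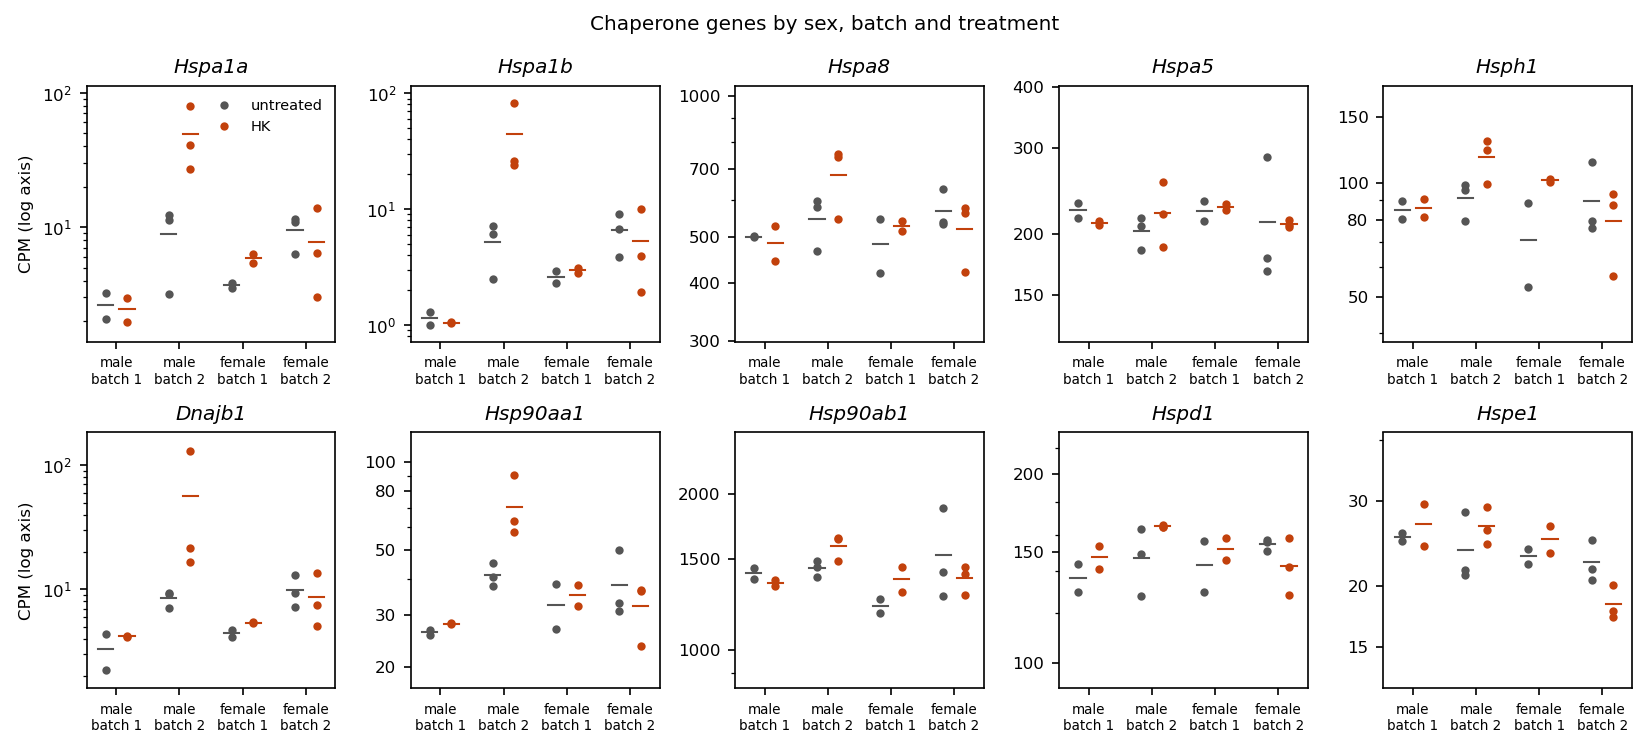
CPM (log axis, one scale per gene) of each chaperone gene in males and females of batches 1 and 2; each point is a mouse (grey untreated, orange-red HK-treated; 2 per group in batch 1 and 3 in batch 2) and the short lines are group means. For Hspa1a, Hspa1b, Dnajb1 and Hsp90aa1 the 3 HK-treated males of batch 2 lie above all other mice, with Dnajb1 at 130.7 CPM in 1 of them.

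Hsph1 and the constitutive and organelle chaperones differed less. Hsph1, the Hsp110 nucleotide exchange factor, ran from 56.7 to 129.3 CPM (median 96.8, n = 10) with HK and from 53.1 to 113.6 CPM (median 84.3, n = 10) without, a log2 fold change of 0.18 (SE 0.12, adjusted p = 0.832, edgeR). Hspa8, the housekeeping Hsp70, ran from 420.9 to 751.0 CPM (median 544.7) with HK and from 418.5 to 635.1 CPM (median 535.3) without. Hsp90ab1 ran from 1274 to 1643 CPM (median 1423) with HK and from 1177 to 1883 CPM (median 1398) without. The groups of each of these genes overlapped over most of their range. Their log2 fold changes were 0.08 (SE 0.09) for Hspa8 and 0.02 (SE 0.07) for Hsp90ab1. Hspa5, the ER Hsp70, had 188.2 to 255.2 CPM with HK and 168.3 to 287.1 CPM without (0.02, SE 0.08). The mitochondrial pair was also close to 0, Hspd1 at 0.06 (SE 0.06; 128.3 to 166.0 CPM with HK, 127.8 to 163.4 CPM without) and Hspe1 at 0.01 (SE 0.08; 17.3 to 29.6 and 20.6 to 28.5 CPM).

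**Figure D3:**
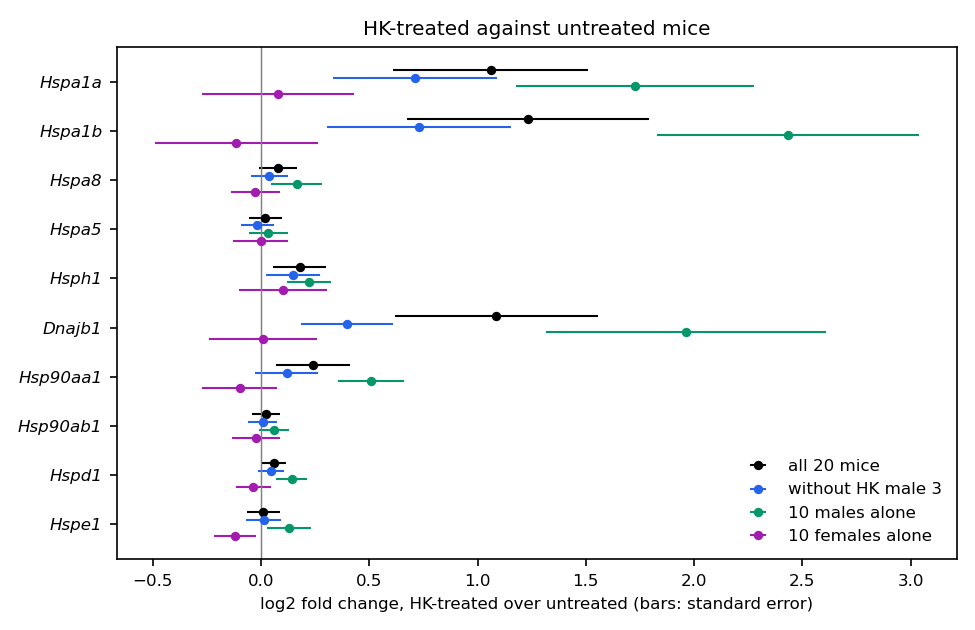
Log2 fold change of HK-treated over untreated mice for each chaperone gene, with its standard error, in 4 fits: all 20 mice (black), without HK-treated male 3 (blue), the 10 males alone (green) and the 10 females alone (purple). Hspa1b is at 1.23 over all mice, 0.73 without male 3, 2.43 in males and -0.11 in females.

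Split by sex, the log2 fold change of Hspa1b was 2.43 (SE 0.60, adjusted p = 0.656, edgeR) in the 10 males and -0.11 (SE 0.38) in the 10 females. That of Dnajb1 was 1.96 (SE 0.65) in males and 0.0089 (SE 0.25) in females, that of Hspa1a 1.73 (SE 0.55) and 0.08 (SE 0.35), and that of Hsp90aa1 0.51 (SE 0.15) and -0.10 (SE 0.17). The difference between the sexes was tested as an interaction over 13800 genes, of which 0% passed an adjusted p of 0.05 and 3.5% had an unadjusted p under 0.05. None of the 10 genes passed (adjusted p = 0.998, edgeR). Hspa1b had an interaction of 2.58 (SE 0.94) and Dnajb1 of 2.07 (SE 0.81), both larger in males. The interaction of treatment with batch also called none of the 10, and 0% of genes (3.01% with an unadjusted p under 0.05). There Hspa1b had the largest value of the set, 1.84 (SE 1.10).

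Within sex and batch, 7 of the 10 genes were higher in all 3 HK-treated males of batch 2 than in all 3 untreated ones, where 7.23% of all genes were (Hspa1a, Hspa1b, Dnajb1, Hsp90aa1, Hsph1, Hspd1 and Hsp90ab1). In the females of batch 2 none was higher (3% of all genes) and 1, Hspe1, was lower in every HK-treated mouse (3.55%). In batch 1, with 2 mice a group, 1 gene was higher (14.5%) and 2 were lower (13.9%) in males, and 4 were higher (18.1%) in females. A fit of the 8 groups of sex, batch and treatment, added after these values were seen, gave log2 fold changes in the batch 2 males of 3.09 for Hspa1b (SE 0.55, adjusted p = 0.0671, edgeR), 2.72 for Dnajb1 (SE 0.59, adjusted p = 0.0836), 2.48 for Hspa1a (SE 0.51, adjusted p = 0.0706) and 0.78 for Hsp90aa1 (SE 0.21, adjusted p = 0.145). None passed, and 0.0367% of all genes did. Without HK-treated male 3 the values were 2.27 for Hspa1b (adjusted p = 0.157), 1.15 for Dnajb1 (adjusted p = 0.218), 1.94 for Hspa1a (adjusted p = 0.198) and 0.55 for Hsp90aa1 (adjusted p = 0.334), and 0.0147% of genes passed. In the females of batch 2 the same fit gave -0.29 for Hspa1b, -0.29 for Hspa1a, -0.16 for Dnajb1 and -0.24 for Hsp90aa1, with 0% of genes called. For the males of batch 1 it gave -0.14 for Hspa1b (SE 0.94), -0.15 for Hspa1a (SE 0.75), 0.31 for Dnajb1 (SE 0.82) and 0.10 for Hsp90aa1 (SE 0.26), again with 0% called. The HK effect in males of batch 2 minus that in males of batch 1 was 3.23 for Hspa1b (SE 1.11, adjusted p = 0.926, edgeR). For it 0% of all genes passed. The HK effect in males minus that in females of batch 2 was 3.38 for Hspa1b (SE 0.77, adjusted p = 0.451, edgeR), and none of the 10 genes and 0% of all genes passed for that difference.

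The make-up of each chaperone family differed in the same mice. Per kb, Hspa1a and Hspa1b together held 24.4%, 11.8% and 12.2% of the cytosolic Hsp70 level (Hspa1a, Hspa1b and Hspa8) in the HK-treated males of batch 2. In the untreated males of batch 2 they held 4.71%, 1.78% and 4.11%. Over the 9 mice of batch 2 that were not HK-treated males the share ran from 1.72% to 5.79%, and the batch 1 mice lay between 0.838% and 2.50%. The inducible share of cytosolic Hsp90, Hsp90aa1 over Hsp90aa1 and Hsp90ab1, was 4.02%, 2.85% and 2.88% in the HK-treated males of batch 2, and between 1.39% and 2.33% in the other mice. Even in those 3 males the constitutive genes held most of both families.

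**Figure D4:**
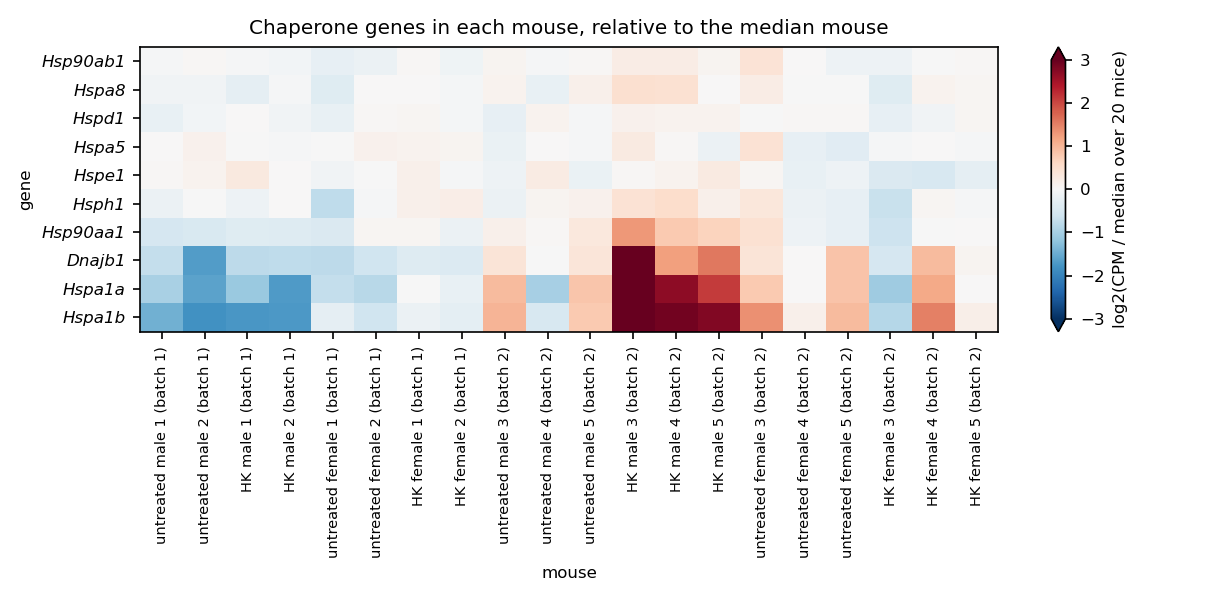
Log2 of CPM over the median of the 20 mice for each chaperone gene (rows, highest level first) and mouse (columns, by batch, sex and treatment); red is above and blue below the median, and values past 3 are drawn at the end of the scale. HK-treated males 3, 4 and 5 of batch 2 stand out in Hspa1a, Hspa1b, Dnajb1 and Hsp90aa1, and the batch 1 mice are mostly below the median in these genes.

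Other gene groups were read in the same mice, each by its summed level. The summed level of 12 immediate early genes, which are induced rapidly by many stimuli, was 720.3, 820.4 and 2553 CPM in the HK-treated males of batch 2 and 288.9 to 409.2 CPM in the untreated males there. HK-treated male 3 had the highest of all 20 mice. In the females of batch 2 the sum was 613.9 to 1444 CPM with HK and 464.7 to 1017 CPM without, and over batch 1 it was 182.7 to 346.5 CPM. Of the 10 of these genes tested, 9 were higher with HK, with a median log2 fold change of 0.82, 4 had an unadjusted p under 0.05 and none passed the adjusted threshold. The 7 small heat shock proteins summed to 2459 to 3198 CPM in the HK-treated males of batch 2, below the 3320 to 5701 CPM of the untreated males there, and the groups overlapped in the females of batch 2 (2608 to 3223 CPM with HK, 2845 to 5925 CPM without). The 9 macrophage markers summed to 110.3 to 244.0 CPM in the HK-treated and 233.0 to 305.1 CPM in the untreated males of batch 2, with none at 0. The 7 slow fibre markers summed to 770.4 to 1480 CPM in those HK-treated males and 806.9 to 6326 CPM in those untreated males, so the ranges of both marker lists overlapped. In bulk tissue, fewer cells of a type and less RNA per cell cannot be told apart. The part of these genes and cells in the values of the chaperones was not tested.

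The second comparison, males against females, asks whether the sexes differ in these genes. None of the 10 passed, where 16.1% of all genes did (1 of the 10 and 30.3% of all genes had an unadjusted p under 0.05). Hspe1 came closest: males had 21.1 to 29.6 CPM (median 25.2, n = 10) and females 17.3 to 26.6 CPM (median 22.0, n = 10), a log2 difference of 0.23 (SE 0.08, p = 0.0081, adjusted p = 0.0501, edgeR). With DESeq2 1 of the 10 genes and 18.7% of all genes passed, and with DESeq2's size factors in edgeR 1 of the 10 and 16.1%. The partner gene Hspd1, whose start site lies 111 bases away, differed by 0.02 (SE 0.06, adjusted p = 0.874, edgeR). Hspa1b (0.68, SE 0.58), Dnajb1 (0.77, SE 0.48) and Hspa1a (0.62, SE 0.47) had the largest sex differences and the largest errors, and their male values include the 3 mice named above.

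The third comparison is of batch 2 with batch 1. Here 4 of the 10 genes were called, all higher in batch 2, where 18.2% of all genes were called higher and 37.1% in either direction. By the quasi-likelihood test of edgeR, with p adjusted over all genes, Hspa1b rose by 2.42 on the log2 scale (SE 0.61, adjusted p = 0.0042), Hspa1a by 1.99 (SE 0.49, adjusted p = 0.0037), Dnajb1 by 1.84 (SE 0.50, adjusted p = 0.0068) and Hsp90aa1 by 0.52 (SE 0.18, adjusted p = 0.0265). The constitutive Hspa8 was at 0.21 (adjusted p = 0.0718) and Hsp90ab1 at 0.15 (adjusted p = 0.0826), and Hspe1 was at -0.15 (adjusted p = 0.147). The untreated mice showed the same order. Their Hspa1a was at 2.08 to 3.85 CPM in batch 1 (median 3.37, n = 4) and 3.17 to 12.2 CPM in batch 2 (median 11.1, n = 6), and their Dnajb1 at 2.24 to 4.70 CPM in batch 1 and 7.11 to 12.98 CPM in batch 2. For Dnajb1 the untreated mice of the batches did not overlap, and for Hspa1a they did. In the same contrast all 10 immediate early genes tested, all 9 macrophage markers, all 5 blood markers and all 5 fibro-adipogenic markers were called higher in batch 2, with median log2 differences of 2.14, 1.88, 1.21 and 0.75. All 7 small heat shock proteins were higher too, 5 of them called (median 0.45). Of 16 other Hsp40 genes, 2 were called higher and 5 lower. What sets the batches apart is not given in the labels, so technical and biological differences between the batches cannot be told apart, and the part of the other genes in the values of the chaperones was not tested.

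Over all 20 mice, the levels of the chaperones were positively correlated with each other. Correlations were computed over the 20 mice on log2 CPM after batch, sex and treatment were taken out, for all 45 pairs. The p-values are two-sided permutation p-values (100000 resamples, of which 1e-05 is the smallest possible), with Benjamini-Hochberg adjustment over the 45 pairs. The permutations treat the values left as independent, which they are not once batch, sex and treatment are fitted. These p-values may therefore be too small. All 45 were above 0, from 0.13 to 0.973 with a median of 0.496. By Pearson's r 22 passed, 18 of them also by Spearman's rho. How many pairs of other genes would be above 0 or pass was not computed, so these counts have no background beside them. In batch 1 alone some pairs were below 0 (Hspa1b with Hspd1 at -0.638, Hspa5 with Dnajb1 at -0.425). Others were above 0 there (Hspa8 with Hsph1 at 0.897). Hspa1a and Hspa1b, whose transcripts share many 75-base windows, had the highest r (0.973, rho 0.965, permutation p = 1e-05, adjusted p = 7.5e-05), with r = 0.746 in batch 1, 0.979 in batch 2 and 0.954 without the 2 farthest mice. Hspa1b and Dnajb1, which share no 75-base window, had r = 0.889 (rho 0.862, permutation p = 1e-05, adjusted p = 7.5e-05), with 0.414 in batch 1, 0.887 in batch 2 and 0.819 without the 2 farthest mice. Hspa1b and Hsp90aa1 had r = 0.884 (rho 0.812, permutation p = 1e-05, adjusted p = 7.5e-05), but -0.434 in batch 1 beside 0.891 in batch 2. These inducible pairs thus had lower values in the 8 mice of batch 1, where their levels were low. The constitutive Hspa8 also had r = 0.798 with Hsp90aa1, 0.753 with Hspa1a, 0.713 with Hspa1b and 0.604 with Dnajb1. In the same order, r was 0.751, -0.036, -0.151 and 0.114 in batch 1, and 0.868, 0.869, 0.830 and 0.634 in batch 2. Without the 2 farthest mice it was 0.737, 0.577, 0.510 and 0.472. Only the relation with Hsp90aa1 was thus similar in both batches. Batch, sex and treatment were taken out as separate terms, so the high level of the HK-treated males of batch 2 stayed in part. For Hspa1b their adjusted values were 2.77, 1.11 and 0.99, beside -1.22 and -1.20 in the HK-treated males of batch 1. The part of this group in the correlations was not tested.

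Other pairs had a similar Pearson's r in both batches, while their rho differed more. In batch 1 and batch 2, rho was 0.619 and 0.867 for Hspa8 with Hsph1 and 0.595 and 0.455 for Hspd1 with Hspe1. For Hspa5 with Hsp90ab1 it was 0.833 and 0.490. Hspa8 and Hsph1, an Hsp70 and its exchange factor, had r = 0.808 (rho 0.791, permutation p = 1e-05, adjusted p = 7.5e-05), with 0.897 in batch 1, 0.810 in batch 2 and 0.828 without the 2 farthest mice. Hspd1 and Hspe1, the chaperonin and its lid, had r = 0.731 (rho 0.711, permutation p = 0.00028, adjusted p = 0.0011), with 0.709 in batch 1, 0.707 in batch 2 and 0.683 without the 2 farthest mice. Hspa5 and Hsp90ab1 had r = 0.751 (rho 0.522, permutation p = 0.00055, adjusted p = 0.0018), and this relation rested partly on 2 untreated females, without which r was 0.404. In batch 1 alone none of the 45 pairs passed by r (lowest adjusted p = 0.0837, permutation test), and in batch 2 alone 17 did, 14 of them also by rho. Without HK-treated male 3, 20 pairs passed by r and 10 by both measures.

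**Figure D5:**
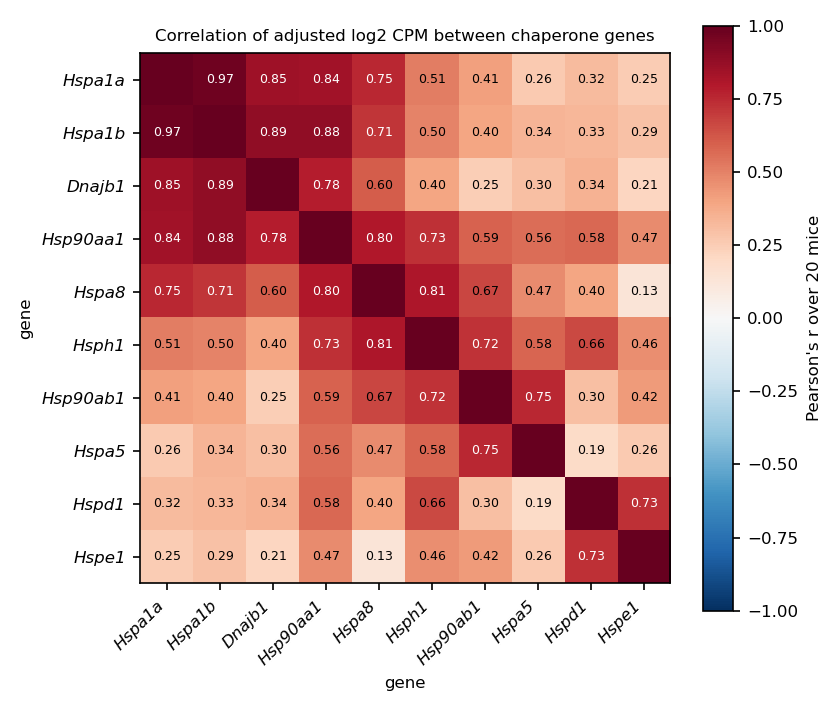
Pearson correlation over 20 mice between the chaperone genes, on log2 CPM after batch, sex and treatment were taken out; the colour and the number in each cell give r. Hspa1a, Hspa1b, Dnajb1 and Hsp90aa1 have high values among themselves (0.78 to 0.97). The constitutive Hspa8 reaches 0.80 with Hsp90aa1 and 0.81 with Hsph1, and Hspd1 with Hspe1 reaches 0.73.

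The genes outside the set whose pattern over the 20 mice was most like each member are given by the same Pearson r, as a description with no test. Hsp90aa1 and Hspa1b were both most like Dnaja1, another Hsp40 (r = 0.947 and 0.915), followed by Pvr for Hsp90aa1 (0.894) and Impact for Hspa1b (0.905). Hspa1a was most like Sdc4 (0.896) and Impact (0.893), and Dnajb1 most like the immediate early gene Fosl2 (0.912, and 0.774 without HK-treated male 3) and Impact (0.894). Hspa5 was most like Hsp90b1, the Hsp90 of the ER (0.935), and Sbno2 (0.896). Hspa8 followed Cyp1b1 (0.860) and Stip1, the protein that links Hsp70 to Hsp90 (0.851). Hsph1 was most like P4ha1 (0.927) and Zfp346 (0.903). Hsp90ab1 was most like the Hsp40 gene Dnajb2 (0.862) and Atoh8 (0.841), Hspd1 like the Hsp90 cochaperone gene Chordc1 (0.876) and Klhl28 (0.872), and Hspe1 like Ubfd1 (0.888) and Rnf128 (0.876).

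The wider chaperone network was read from lists of named genes, in the same fit, beside a median log2 fold change with HK of 0.0024 over all genes tested. No gene of any list passed the adjusted threshold for HK. Of 10 other Hsp70 and Hsp110 genes 4 were higher and 6 lower (median -0.0049), with Hspa4l at 0.28 and Hspa12b at -0.27. Of 16 other Hsp40 genes 10 were higher (median 0.02), with Dnaja1 at 0.38 (SE 0.15) and Dnaja4 at -0.23 (SE 0.10). Of 12 Hsp70 cochaperones 9 were higher (median 0.04), led by Bag6 (0.09) and Bag4 (0.12). Of 14 Hsp90 cochaperones 11 were higher (median 0.08), with Ppid at 0.13 (SE 0.06) and Unc45a at 0.14 (SE 0.07). Of the 4 genes of the heat shock factor list 3 were higher, with Hsbp1 at 0.10 and Hsf4 at 0.16. These values were smaller than those of Hspa1a, Hspa1b and Dnajb1.

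The 7 small heat shock proteins, which hold unfolded proteins without ATP, were all lower with HK (median -0.21), with Hspb7 at -0.78 (SE 0.22) and Hspb6 at -0.26 (SE 0.10), both with an adjusted p of 0.795 in edgeR. Of 21 genes of ER folding 11 were higher (median 0.0014), with Herpud1 at 0.10 and Pdia6 at -0.11. Of 11 genes of mitochondrial folding and proteolysis 5 were higher (median -0.0033), with Afg3l2 at -0.09 and Grpel1 at -0.07, and of 8 TRiC chaperonin subunits 2 were higher (median -0.01), Cct6a at 0.07 and Cct5 at 0.03. The immediate early genes Nr4a1 and Fosl2 were at 0.75 (SE 0.24) and 1.13 (SE 0.41). Between males and females 4 of the 95 genes tested in these chaperone lists (4.21%, beside 16.1% of all genes) were called by edgeR's quasi-likelihood test. Xbp1, a factor of the ER stress response, was lower in males (-0.43, SE 0.08, adjusted p = 0.0005), as was Ppid (-0.29, SE 0.06, adjusted p = 0.0016). The mitochondrial Hsp40 gene Dnaja3 was higher in males (0.20, SE 0.04, adjusted p = 0.0033), as was Hspb8 (0.32, SE 0.08, adjusted p = 0.0117).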

How the data were processed

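Per the study's methods and the submitters' processing notes, the authors sequenced rRNA-depleted total RNA of gastrocnemius for 75 cycles and aligned reads with STAR 2.6.1c to GRCm38.p6. They deposited whole-number counts per Ensembl gene for 20 mice. How reads were counted (tool, strand, reads matching more than 1 gene) is not given in the sources used here. Identifiers were matched to GENCODE M21, with 260 of 55401 unmatched (0.0013% of counts).

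From these counts, edgeR 4.0.16 in R 4.3.3 was run with filterByExpr (13626 genes kept), TMM factors and a quasi-likelihood test with batch, sex and treatment as terms. P-values were adjusted by Benjamini-Hochberg over all genes tested, with a threshold of 0.05. Log2 CPM used a prior count of 2. Levels per kb divide CPM by the exon length of the gene. The fitting script was tested on simulated data. Alternatives were DESeq2 1.42.0, limma voom (3.58.1), other filters and covariates, each batch or sex alone, and leaving out each mouse. The filter at 10 counts, robust dispersion, the fit of 8 groups and the correlations without HK-treated male 3 were chosen after seeing the data. Plots were drawn with matplotlib 3.10.9.

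The genes and lists were chosen with earlier results of these data known. Beside the 10 genes, the text names the 2 genes of each chaperone list with the lowest p for HK, those called between the sexes, and the 2 genes most correlated with each of the 10. The marker lists cover muscle, fast and slow fibres, macrophages, blood, endothelium, fibro-adipogenic cells, adipocytes and Schwann cells.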

Additional observations from a re-analysis of the deposited data

Results flagged for a closer look

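Within treatment and sex, with 5 mice a group, 40 groups of values of the 10 genes were searched for a mouse far from the others, and 4 had one (Dixon's limit at 0.71 of the range). Chance gives about 1 in 20 where the mice of a group are alike, but each group holds 2 mice of batch 1 and 3 of batch 2, and Dnajb1 and Hspa1b were higher in batch 2 (by 1.84 and 2.42 on the log2 scale), so that rate may not apply. Dnajb1 in HK-treated male 3 was 130.7 CPM, with the next HK-treated male at 21.4 CPM. HK-treated female 4 was highest of its group for Dnajb1, at 13.7 CPM with the next at 7.50 CPM, and for Hspa1b, at 10.0 CPM with the next at 3.96 CPM. Hspd1 in untreated female 1 was the lowest of its group at 129.8 CPM, with the next at 151.0 CPM.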

How the results depend on the processing

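Of 538 values under alternatives, 340 were fold changes of the 10 genes and the rest were counts of genes, members or pairs called. A fold change was scored as kept if its direction and side of the threshold held, and a count if it stayed within 1.5 times the main count. By that rule 498 of the 538 were kept, and 320 of the 340 fold changes stayed above 0. Without a filter on low counts, 502 genes (1.67%) were called for HK and 4 of the 10: Hspa1a (1.08, adjusted p = 9.6e-25), Hspa1b (1.25, adjusted p = 3.8e-25), Dnajb1 (1.10, adjusted p = 5.5e-27) and Hsp90aa1 (0.25, adjusted p = 0.0364, edgeR). In that fit the prior degrees of freedom of edgeR became infinite, and the dispersion of Hspa1b fell from 15.2 to 0.636. With genes of at least 10 counts it was 14.3. No filter also gave 4 of the 10 genes between the sexes (9.25% of all genes), 4 for treatment by sex (1.04%) and 3 for treatment by batch (0.748%). DESeq2 called 7 genes for HK and gave Hspa1b no p, and DESeq2 and its size factors each called 1 of the 10 between the sexes (18.7% and 16.1% of all genes). In the filtered alternatives the adjusted p for HK ran from 0.641 to 1 for Hspa1a and Dnajb1 and from 0.649 to 1 for Hspa1b. Leaving out 1 mouse gave 0 to 1 genes called for HK (1 without HK-treated female 1). It gave 0 to 1 of the 10 between the sexes, where 13.5% to 16.8% of all genes were called. Between batches it gave 3 to 5 of the 10, beside 32.3% to 38.5% of all genes. The number of pairs correlated by r was 18 to 28 (22 over all mice). By both r and rho it was 18 pairs over all mice, 10 without HK-treated male 3 and 11 without HK-treated male 4. The fold change ran from -0.018 to 0.089 for Hspa5, from -0.025 to 0.043 for Hspe1 and from -0.0018 to 0.078 for Hsp90ab1. In females alone the fold change was -0.11 for Hspa1b, -0.028 for Hspa8, -0.0026 for Hspa5, -0.10 for Hsp90aa1, -0.024 for Hsp90ab1, -0.036 for Hspd1 and -0.12 for Hspe1. In batch 1 alone it was -0.033 for Hspa5, and 0 pairs were correlated. In batch 2 alone it was -0.054 for Hspe1. Apart from the dispersion values, the cause was not tested. With the replicate number as a block, 0 genes were called (Hspa1a 0.82, Hspa1b 0.94, Dnajb1 0.70). Same-numbered mice correlated at -0.42 to 0.17 in their deviations from the group means. In batch 1, with 2 mice a group, the deviations of the 2 mice mirror each other and give 1 value per sex. Whether the numbers pair mice could thus not be decided. Depth limits Hspa1a, Hspa1b and Dnajb1 most, since they had as few as 27, 13 and 29 counts.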

Other observations

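Among pseudogenes named after Hspd1, the one with most counts (Hspd1-ps3) had 0.628% of the counts of Hspd1, and no pseudogene named after Hspe1 had over 0.0344% of its counts. The antisense neighbour Gm20481 of Hspa1a had 4 counts over the 20 mice.

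With HK, all 5 blood markers (median log2 fold change 0.47) and all 4 Schwann cell markers (0.32) were higher, and all 9 macrophage (-0.29), 7 slow fibre (-0.71), 5 endothelial (-0.26) and 5 fibro-adipogenic markers (-0.22) were lower. Of 8 fast fibre markers 5 were higher (0.05), of 7 muscle-defining markers 4 (0.06) and of 5 adipocyte markers 2 (-0.03). None of these genes passed the adjusted threshold in edgeR. Their part in the values of the chaperones was not tested.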
